A study of Sus scrofa with 85 samples.

Results

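Levels of 5 collagen genes, COL1A1, COL1A2, COL3A1, COL5A1 and COL6A3, were followed through biopsies of the infarcted pig heart and through blood. The 5 were picked out of 31907 genes in the count table because the study placed them at the head of the genes that set a handful of collagen-rich biopsies apart from its other heart biopsies. Their high level in those biopsies is therefore how they were chosen and is given below as a description only. All 5 genes were found in the table by gene ID, and a separate table of gene names gave their symbols.

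The study sampled 3 female swine of a Yorkshire and Swedish farm breed in which a balloon closed the distal left anterior descending coronary artery for an hour before the vessel was reopened. Micro-EMBs, endomyocardial biopsies of very small size taken through a catheter, came from the apical wall (infarcted region) or from the lateral and basolateral wall (non-infarcted region). They were taken during occlusion (0-1 h), early after reperfusion (1-3 h), and again after 2 days and after 14 days. Baseline micro-EMBs were taken before occlusion and were not aimed at a region. Venous blood was drawn from the same animals, and no animal without an occlusion entered the comparisons. Of 85 libraries, 57 were kept: those with at least 1000000 counts and with 7 to 60% of them in their 10 most counted genes. These were 4 baseline micro-EMBs, 5, 9, 4 and 7 infarcted and 3, 3, 4 and 6 non-infarcted micro-EMBs at the 4 timepoints in order, and 1, 2, 4 and 5 blood samples at baseline, 1-3 h, 2 days and 14 days. Their totals lay between 3499443 and 16659110 counts. Because 3 animals gave all of them, p-values over libraries treat biopsies of the same heart as replicates and are too small.

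Fibrillar collagens are the rope-like proteins of the interstitial matrix, secreted in the heart mainly by fibroblasts and laid down in quantity when lost muscle is replaced by scar. COL1A1 and COL1A2 encode the chains that assemble into type I collagen, the stiff bulk collagen of scar and tendon. COL3A1 encodes the chain of type III collagen, the finer collagen of distensible tissues and early repair. COL5A1 encodes a chain of type V collagen, a minor component that nucleates type I fibrils, and COL6A3 a chain of type VI collagen, a beaded microfibril that surrounds cells and forms no thick banded fibrils.

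On Sscrofa11.1 in the RefSeq annotation, COL1A1 (ENSSSCG00000036135) lies on the minus strand at chr12:26379087-26397180 and COL1A2 (ENSSSCG00000015326) on the plus strand at chr9:74174484-74210407. COL3A1 (ENSSSCG00000016034) lies on the plus strand at chr15:93556914-93595678. COL6A3 (ENSSSCG00000027331) lies on the same chromosome on the minus strand at chr15:137011549-137103687, and COL5A1 (ENSSSCG00000005751) on the plus strand at chr1:273934219-274083264. Each is protein-coding and overlaps 0 other annotated genes. The 5 therefore occupy separate loci, and the 150 bases before the annotated transcript start are shown for COL1A1 and COL1A2, the pair of type I chains with the widest ranges between biopsies, to let their starts be read beside levels that went together. The windows are chr12:26397181-26397330 (minus strand) and chr9:74174334-74174483 (plus strand), each written 5′ to 3′ from the genome sequence given with the annotation. Capitals mark the letters TATAAA, and CCAAT read on the opposite strand, both searched on both strands.
COL1A1: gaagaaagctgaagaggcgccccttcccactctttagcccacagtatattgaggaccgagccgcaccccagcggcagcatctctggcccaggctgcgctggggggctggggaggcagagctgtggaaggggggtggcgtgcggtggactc
COL1A2: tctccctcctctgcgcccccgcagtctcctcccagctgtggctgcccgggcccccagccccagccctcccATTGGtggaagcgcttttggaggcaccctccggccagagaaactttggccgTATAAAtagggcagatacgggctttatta
COL1A2 carried TATAAA at -29 to -24 and CCAAT on the opposite strand at -80 to -76, counted back from the base before the start. Neither set of letters stood in the window of COL1A1. Of 19546 windows of this length before annotated gene starts, 5.84% held TATAAA and 23.1% held CCAAT. The COL1A1 window belongs to the start of 1 of 3 annotated transcripts, and the window before the start shared by the other 2, at position 26397041, held CCAAT on the opposite strand at 2 places. Windows of COL5A1 and COL6A3 are not shown because their annotated starts lie 4 and 5 bases from the first coding base. GC content was 66% for COL1A1 and 62.7% for COL1A2, so the windows shown were close in base composition. They did not share these letters, but the window of the other COL1A1 start shared CCAAT on the opposite strand with COL1A2.

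Whether the samples were myocardium was checked first on cell type markers. In a principal component analysis of the 500 most variable genes, 6 micro-EMB libraries stood apart from the other 39 along the second component (9.24% of the variance). They were baseline replicate 1, infarcted 0-1 h replicate 3, infarcted 1-3 h replicate 6, infarcted 2 days replicate 6, infarcted 14 days replicate 5 and non-infarcted 1-3 h replicate 4. Summed over the 8 cardiomyocyte markers that carried a symbol, they held a median of 319 and at most 829 CPM (counts per 1000000). The other 39 held 5622 to 26317 CPM, and blood up to 334 CPM. Summed marker CPM were taken on a library's total without TMM factors, whereas the log2 CPM values below were scaled with them. TNNT2, cardiac troponin T, was at 2.75 to 196 CPM in the 6 libraries and at 1210 to 7522 CPM in the others. Their fibroblast markers summed to 1685 to 2769 CPM, against 330 to 1735 CPM in the others and 309 to 414 CPM in blood. Heart muscle markers in the 6 libraries were thus partly within the range of blood, which goes against their label as left ventricular myocardium. Their fibroblast markers lay near or above the top of the other biopsies. Adipocyte markers summed to 1.3 to 2989 CPM in the 6 (median 3.25) and to 0.106 to 199 CPM in the others (2.43). Leukocyte markers summed to at most 735 and at most 402 CPM. Erythroid markers summed to 7.28 to 4401 CPM in the 6, 13.8 to 5897 CPM in the others and 3453 to 14133 CPM in blood. In swine 5385 every micro-EMB held 3008 to 5897 CPM of them, except infarcted 0-1 h replicate 3 (661). Those of swine 1640 and 1644 held at most 174 CPM. The source of these counts was not tested. In such bulk samples, fewer cells of a type and less RNA per cell cannot be told apart. The study does not name the libraries that it set apart. Its sample counts per group after exclusion equal those of the 39 other micro-EMBs here. It excluded its outlier samples, which it took to come from fibrous parts of the heart. Here the 6 libraries stay in the main fits. Values without the 6 libraries are given beside the results that rest on them.

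**Figure D1:**
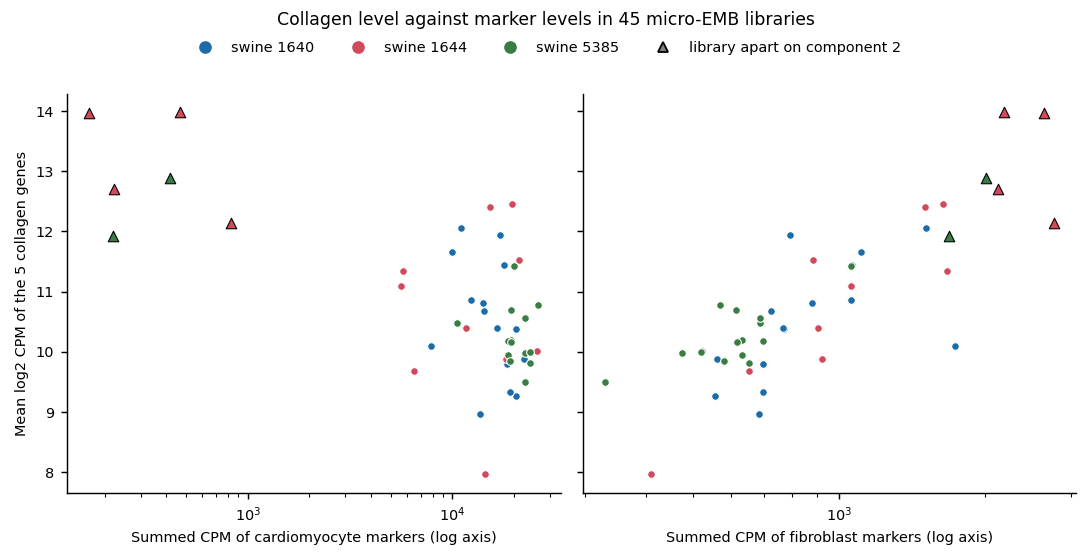
Mean log2 CPM of the 5 collagen genes against the summed CPM of cardiomyocyte markers and of fibroblast markers (log axes) in 45 micro-EMB libraries, coloured by swine, with triangles for the 6 libraries apart. The 6 triangles lie below 829 CPM of cardiomyocyte markers, and every other library lies above 5622 CPM.

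The 6 libraries apart, whose kind chose the genes, held COL1A1 at 14.31 ± 0.93 log2 CPM (SD, n = 6), against 11.26 ± 1.20 (SD, n = 39) in the other micro-EMBs. COL1A2 stood at 12.73 ± 0.88 and 9.96 ± 1.09, and COL3A1 at 13.73 ± 1.04 and 11.46 ± 0.96. COL5A1 stood at 12.49 ± 0.89 and 10.12 ± 0.90, and COL6A3 at 11.42 ± 0.86 and 9.50 ± 0.78. The ranges met for each gene. The lowest of the 6 held COL3A1 at 12.12 log2 CPM, while the highest of the other 39 held it at 13.69. High collagen was therefore not limited to the 6 libraries, and in the infarcted biopsies of 2 days it was also found in 3 libraries with cardiomyocyte markers of 10989 to 19531 CPM, within the range of the rest.

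Among transcripts of micro-EMBs these genes were abundant. Together they took 0.177 to 9.50% of a library's counts, with a median of 0.837%. By mean log2 CPM, COL3A1 ranked 11, COL1A1 13, COL5A1 37, COL1A2 43 and COL6A3 63 among 18097 genes. Levels were compared between genes as CPM per kilobase of exon, because their annotated exons run from 4768 bases in COL3A1 to 9967 bases in COL6A3. On this scale COL3A1 had a median of 615 CPM per kilobase (range 102 to 6278, n = 45 libraries), COL1A1 376 (49.1 to 7807), COL5A1 189 (41.4 to 2464), COL1A2 186.4 (28.6 to 3125) and COL6A3 79.8 (18.9 to 550.0). COL3A1 was the highest of the 5 in 36 libraries and COL1A1 in 9, and COL6A3 was the lowest in all 45. The order of the type III and type I genes thus turned over within the series, while type VI stayed last in every biopsy.

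The ranges were wide and were mostly found inside groups. From the lowest to the highest micro-EMB, COL1A1 ran over 159-fold, COL1A2 over 109.4-fold, COL3A1 over 61.8-fold, COL5A1 over 59.5-fold and COL6A3 over 29.2-fold. Over the 39 libraries without the 6 apart these ranges were 44-fold, 36.5-fold, 27.2-fold, 18.9-fold and 10.9-fold. The SDs over the 45 libraries were 1.56, 1.42, 1.24, 1.21 and 1.02 on the log2 scale in the same order, against a median of 0.86 over all genes. Over the 39 libraries they were 1.20, 1.09, 0.96, 0.90 and 0.78, against a median of 0.74. The spread over all 45 libraries is in part how the genes were chosen. Baseline or region and timepoint together held 13.4% of the variance of COL1A1, 14.1% of COL1A2, 17.1% of COL3A1, 17.8% of COL5A1 and 21.7% of COL6A3, where the median gene had 18.1%. Differences between the 3 swine held 8.59% (COL5A1) to 12.02% (COL1A2). Most of the spread was thus between biopsies of the same region and time.

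Before occlusion, COL1A1 was at 13.98, 10.47, 10.38 and 12 log2 CPM in the 4 baseline libraries, and COL3A1 at 13.74, 10.81, 10.98 and 11.76. The first of these is 1 of the 6 libraries apart, and it was the highest baseline library for all 5 genes. In the infarcted region at 0-1 h, COL1A1 was at 10.26, 11.07, 14.08, 12.99 and 11.04 log2 CPM, the highest again a library apart. At 1-3 h its 9 infarcted libraries had a lowest value of 8.24, a median of 11.03 and a highest of 15.55, which are also the extremes of the 45 micro-EMBs. The highest of these, too, is a library apart. With the libraries apart included, the widest group of the series for COL1A1 was the biopsies taken early after reperfusion (SD 2.12).

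At 2 days the infarcted region was high and narrow. COL1A1 was at 13.55, 13.17, 12.43 and 13.35 log2 CPM in its 4 libraries, and at 10.54, 10.72, 11.86 and 11.52 in the 4 non-infarcted libraries of that day. COL3A1 was at 13.69, 13.02, 12.55 and 12.12 in the infarcted region and at 11.19, 11.04, 11.30 and 11.01 in the non-infarcted region. COL6A3 was at 10.97, 11, 10.54 and 10.43, against 9.06, 9.21, 9.34 and 9.32. For these 3 genes every infarcted library lay above every non-infarcted one, and the same held for COL1A2 (lowest infarcted 11.12, highest non-infarcted 10.44) and COL5A1 (10.62 and 10.46). The infarcted group of 2 days had the highest mean of the 9 micro-EMB groups for all 5 genes, at 13.13 ± 0.49 for COL1A1, 11.69 ± 0.52 for COL1A2, 12.84 ± 0.67 for COL3A1, 11.49 ± 0.67 for COL5A1 and 10.74 ± 0.29 for COL6A3 (SD, n = 4). Marker lists moved with this difference. Fibroblast markers summed to 1065 to 1685 CPM in the infarcted and 523 to 765 CPM in the non-infarcted libraries of 2 days, and collagen-processing genes to 1131 to 1324 and 485 to 684 CPM. Cardiomyocyte markers summed to 219 to 19531 and 14230 to 26010 CPM, the lowest in the library apart. Their part in the 2-day difference was not tested.

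At 14 days the groups spread out again. In the infarcted region COL1A1 had a lowest value of 9.86, a median of 11.56 and a highest of 15.37 log2 CPM in 7 libraries, and in the non-infarcted region 9.57, 10.82 and 12.75 in 6. Swine 1644 gave the 2 highest infarcted libraries for COL1A1, at 15.37 and 13.51, the first of them a library apart. The infarcted group of 14 days was next in the order of means for every gene, lower than that of 2 days by 1.12 log2 for COL1A1, 1.07 for COL1A2, 0.57 for COL3A1, 0.67 for COL5A1 and 0.53 for COL6A3. Over the 9 groups and 5 genes there were 40 gaps between neighbours in the order, and 35 of them were smaller than the smaller SD of the pair. The other 5 gaps were the step below the 2-day infarcted group for every gene but COL3A1, and a step of COL6A3 between the non-infarcted groups of 2 and 14 days. These were set against the smaller SD only, and the infarcted COL1A1 values of 14 days, 9.86 to 15.37, reached below and above all those of 2 days, so the groups next to each other were not separate.

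**Figure D2:**
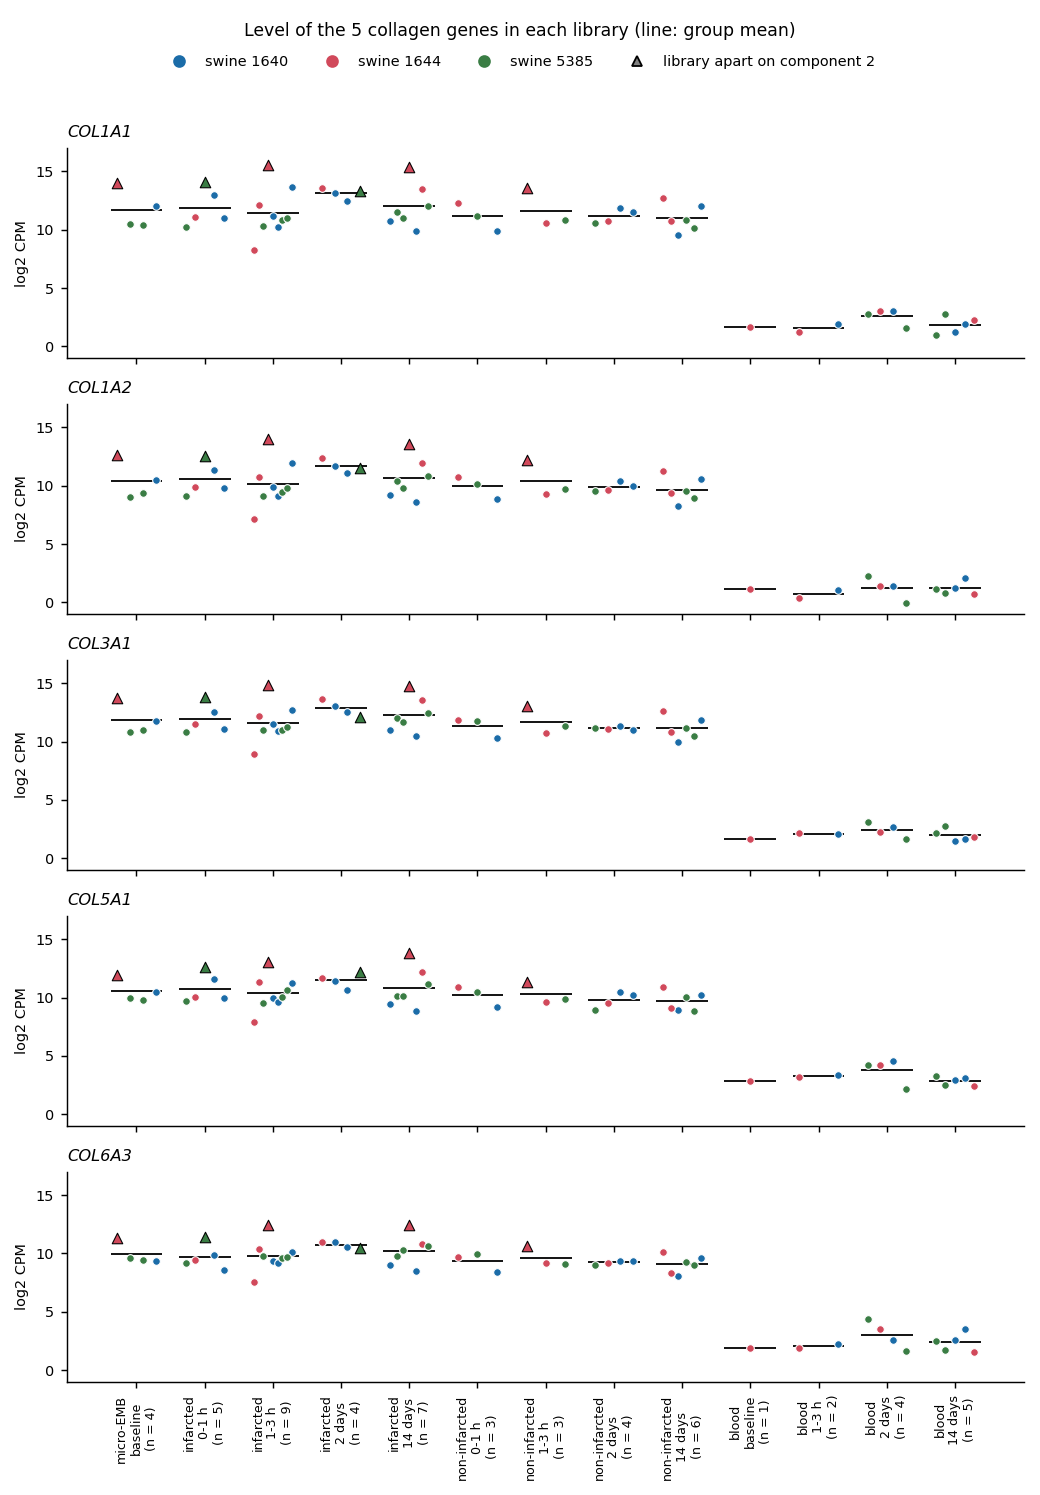
Level (log2 CPM) of each of the 5 genes in 45 micro-EMB and 12 blood libraries by group, 1 panel a gene, with points coloured by swine, triangles for the 6 libraries apart and a line at the group mean. The 4 infarcted libraries of 2 days lie above the 4 non-infarcted libraries of 2 days in all 5 panels, and all blood libraries lie far below.

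Whether collagen expression changed with time in the infarcted region was asked with edgeR's quasi-likelihood test over the 4 baseline and 25 infarcted libraries. Over any timepoint 0 of the 5 genes passed an adjusted p of 0.05, with adjusted p-values of 0.949 (COL5A1) to 0.987 (COL1A2), where 3.35% of 17929 genes passed. None of the 5 passed at a single timepoint either, where 1.62% of all genes passed at 1-3 h and 0% at 0-1 h, 2 days and 14 days. All 5 had unadjusted p-values above 0.05 in this test, at each timepoint, whereas 17.5% of all genes fell below it at 1-3 h, 3.32% at 0-1 h, 2.87% on day 2 and 2.66% on day 14 (15.1% over any timepoint). Against baseline the estimate for COL1A1 was a log2 fold change of 0.18 ± 1.20 (SE) during occlusion, 0.66 ± 1.11 early after reperfusion, 0.76 ± 1.27 on day 2 and 0.79 ± 1.15 on day 14. At 2 days its 95% interval ran from -1.74 to 3.25, so neither a fall nor a severalfold rise could be told apart from no change with this baseline. The estimates moved with single baseline libraries. Left out 1 at a time were the libraries of baseline, 0-1 h and 2 days (13 fits), and none of 1-3 h or 14 days. The COL1A1 estimate then ran from 0.28 to 1.80 early after reperfusion, 0.46 to 1.97 on day 2 and 0.47 to 1.98 on day 14. The highest of each came without baseline replicate 1. For COL5A1 the 14-day estimate was 1.06 ± 0.89, with a range of 0.84 to 1.65 over the same fits, which kept every 14-day library. Infarcted 14 days replicate 5, a library apart, held COL5A1 at 13.82 log2 CPM, where the median of its group was 10.12.

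The baseline value rested on few libraries and on 1 of them in particular. Without the 6 libraries apart, the 2-day estimates over baseline became 1.92 ± 1.03 (SE) for COL1A1, 1.99 ± 0.89 for COL1A2, 1.88 ± 0.73 for COL3A1, 1.18 ± 0.73 for COL5A1 and 1.34 ± 0.51 for COL6A3. Their adjusted p-values were 1, with unadjusted p-values from edgeR of 0.0741, 0.0356, 0.0172, 0.12 and 0.0154. With baseline replicate 1 as the only library left out, the COL1A1 estimate for 2 days was 1.97. The mean of 2-day infarcted libraries minus the mean of baseline libraries for COL1A1 was 0.80 log2 in swine 1640, -0.43 in swine 1644, whose only baseline library is the one apart, and 2.93 in swine 5385. In the non-infarcted region, too, 0 of the 5 genes passed for any timepoint, with adjusted p-values of 0.802 to 0.872, and 0% of 18185 genes did (6.83% at an unadjusted p under 0.05).

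The infarcted and the non-infarcted region were then compared over the 4 timepoints after baseline, in 25 and 16 libraries with timepoint in the fit. Region here is the wall at which a biopsy was aimed. The study calls its sampling of both areas partly inaccurate. It also reports non-infarcted samples that clustered with infarcted ones of 1-3 h. The choice of the genes bears on this contrast, because 4 of the 6 libraries apart are infarcted and 1 is non-infarcted. All 5 genes had higher estimates in the infarcted region, by a log2 fold change of 1.38 ± 0.51 (SE; 2.60-fold) for COL1A1, 1.18 ± 0.46 (2.26-fold) for COL1A2, 1.19 ± 0.40 (2.28-fold) for COL3A1, 1.28 ± 0.39 (2.42-fold) for COL5A1 and 1.05 ± 0.31 (2.07-fold) for COL6A3. The median over all 17969 genes was -0.05. None passed after adjustment (edgeR adjusted p = 1 for each), and neither did any other gene (0%). Unadjusted edgeR p-values were 0.0105, 0.0141, 0.00497, 0.00231 and 0.00185 in the same order, where 3.31% of all genes had one under 0.05. Without the 6 libraries apart the estimates were smaller, at 0.84 ± 0.41, 0.76 ± 0.36, 0.83 ± 0.30, 0.74 ± 0.30 and 0.70 ± 0.23, with unadjusted edgeR p-values of 0.0494, 0.0415, 0.00974, 0.0182 and 0.00438 and an adjusted p of 0.995. With swine as a block the estimates were 1.40, 1.18, 1.18, 1.26 and 1.07, with adjusted p-values of 0.642 to 0.858. DESeq2 gave adjusted p-values of 0.0588 to 0.128 and also called 0 genes.

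The region effect was also estimated at each timepoint. At 2 days the log2 fold change of the infarcted over the non-infarcted region was 1.86 ± 1.15 (SE) for COL1A1, 1.79 ± 1.03 for COL1A2, 1.79 ± 0.89 for COL3A1, 1.64 ± 0.86 for COL5A1 and 1.50 ± 0.69 for COL6A3, each with an adjusted p of 1. Without the 6 libraries apart it was 1.81, 1.86, 2.00, 1.37 and 1.61 (adjusted p of 1 for each), and with swine as a block 1.74, 1.58, 1.60, 1.51 and 1.45. At 14 days it was 1.70, 1.47, 1.49, 1.83 and 1.42, with an adjusted p of 0.652 for each, but 0.50, 0.53, 0.76, 0.83 and 0.78 without the 6 libraries. At 0-1 h the estimates were 1.15, 0.97, 0.98, 0.87 and 0.56 in the main fit. With swine as a block they were 1.86, 1.48, 1.34, 1.27 and 0.76, and without the 6 libraries 0.32, 0.18, 0.25, 0.17 and -0.11. The order of the timepoints thus depended on these choices, while the 2-day estimates stayed above 1 in all 3 fits. At 1-3 h the main estimates lay between 0.48 and 0.76, and those with swine as a block between 0.69 and 1.03. Without the 6 libraries they lay between 0.38 and 0.97. In the main fit 0.0557% of all genes were called at 1-3 h and 0% at the other timepoints. The difference between timepoints was itself tested as an interaction and did not pass for any of the 5 (edgeR adjusted p = 0.976 to 0.984, 0 of 17969 genes passing). Separation without overlap was seen at 2 days for 5 of 5 genes, where 2.76% of all genes had every infarcted library above every non-infarcted one, and at the other timepoints for 0 of 5 (0.367% of all genes at 0-1 h, 0.0278% at 1-3 h and 0.0445% at 14 days).

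Within animals the 2-day difference had the same direction 3 times. For COL1A1, infarcted minus non-infarcted was 1.11 log2 in swine 1640, 2.84 in swine 1644 and 2.81 in swine 5385. The value of swine 5385 rests on infarcted replicate 6, a library apart, and without it 2 of 2 swine were higher for each gene. The ranges over the 3 swine were 1.21 to 2.79 for COL1A2, 0.93 to 2.65 for COL3A1, 0.70 to 3.25 for COL5A1 and 1.37 to 1.77 for COL6A3. At 0-1 h and at 14 days the infarcted region was higher in 2 of 3 swine for each gene, the exceptions being swine 1644 at 0-1 h (-1.22 for COL1A1) and swine 1640 at 14 days (-0.51). Without the libraries apart it was higher in 1 of 3 swine at 0-1 h and still in 2 of 3 at 14 days. At 1-3 h only 2 swine had both regions, and their COL1A1 differences were -0.06 and -0.11. The mean of the 5 genes was higher in the infarcted region in 9 of 11 pairs of swine and timepoint, COL1A1 and COL1A2 in 7, COL3A1 in 8, and COL5A1 and COL6A3 in 9. Without the libraries apart the mean was higher in 6 of 10 pairs, COL1A1, COL1A2 and COL3A1 in 5, COL5A1 in 7 and COL6A3 in 6.

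**Figure D3:**
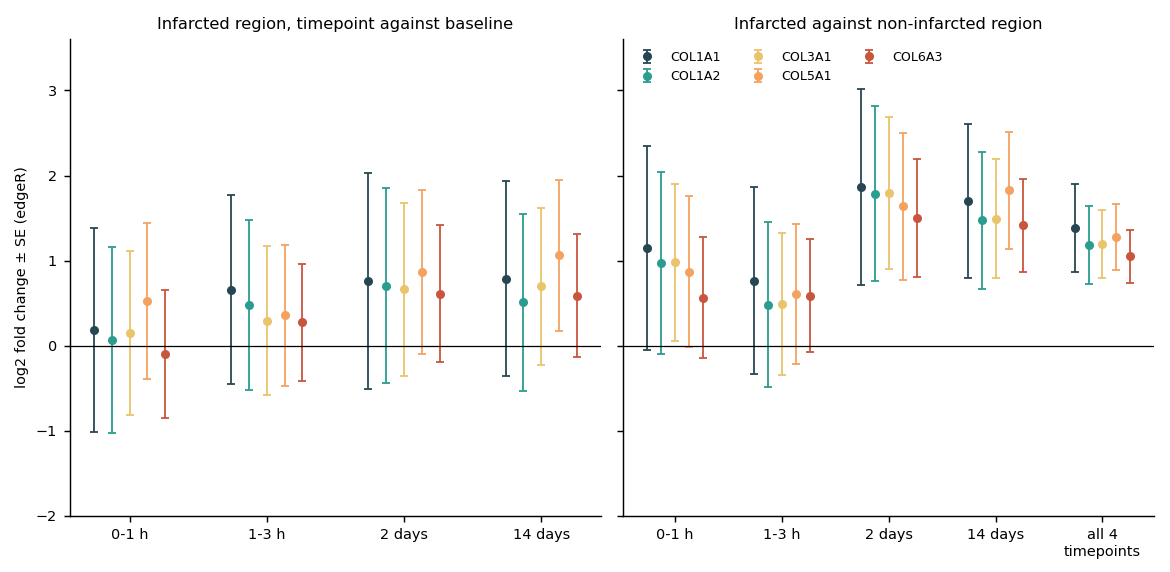
Log2 fold changes with SE (edgeR) of the 5 genes for each timepoint of the infarcted region against baseline (left) and for the infarcted against the non-infarcted region by timepoint and over all 4 (right). On the left the SE bars cross 0 for every estimate except that of COL5A1 at 14 days. On the right, over all 4 timepoints the region estimates lie between 1.05 and 1.38.

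Blood held very little of these transcripts. COL1A1 was at 0.99 to 3.02 log2 CPM in 12 blood libraries (median 1.89), COL1A2 at -0.09 to 2.25 (1.16), and COL3A1 at a median of 0.906 CPM per kilobase. Micro-EMBs exceeded blood by a log2 fold change of 10.52 ± 0.92 (SE; 1470-fold) for COL1A1, 9.99 ± 0.82 (1020-fold) for COL1A2, 10.23 ± 0.73 (1200-fold) for COL3A1, 7.61 ± 0.65 (196-fold) for COL5A1 and 7.40 ± 0.56 for COL6A3. The edgeR adjusted p-values were 1.48e-15, 1.22e-16, 3.38e-19, 5.2e-16 and 3.65e-18, in a comparison in which 52.5% of 18441 genes passed and 28.4% were higher in micro-EMBs. Every micro-EMB lay above every blood library for 5 of 5 genes, and for 4.18% of all genes. The estimated difference was thus smaller for COL5A1 and COL6A3 than for the genes of types I and III. Per length the order in blood was another one: COL5A1 was the highest of the 5, with a median of 1.52 CPM per kilobase, and COL1A2 the lowest with 0.439. This order rests on low counts, 37 to 328 for COL5A1 and 7 to 81 for COL1A2 in a blood library. The source of these counts was not tested.

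Levels of the 5 genes went together from biopsy to biopsy. Over 45 micro-EMBs Pearson's r between their log2 CPM ran from 0.905 (COL1A1 with COL6A3) to 0.995 (COL1A1 with COL1A2), with a median of 0.948 over the 10 pairs, and Spearman's rho from 0.852 to 0.992. These are descriptions of libraries that share animals and a scaling, and the genes were chosen from libraries where all 5 were high. Without the 6 libraries apart r ran from 0.821 to 0.991 (n = 39). After the mean of each group was subtracted it was 0.907 to 0.995, and after the mean of each swine was subtracted 0.928 to 0.995. Within single animals r was 0.868 to 0.994 in swine 1640 (15 libraries), 0.963 to 0.997 in swine 1644 (14 libraries) and 0.852 to 0.988 in swine 5385 (16 libraries). In the 12 blood libraries, at levels of a few CPM, r ran from 0.319 to 0.867. The same library was the highest for all 5 genes in 7 of 9 micro-EMB groups.

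They did not move by equal amounts. On the mean of the other 4 genes COL1A1 had a slope of 1.28, COL1A2 1.14, COL3A1 0.95, COL5A1 0.90 and COL6A3 0.71 on the log2 scale, and without the 6 libraries apart 1.28, 1.15, 0.98, 0.87 and 0.67. Type I collagen genes thus changed more than the rest between biopsies, and COL6A3 changed less. Of the ratios to COL1A1, that of the type I chains varied least, with COL1A1 at 2.06 times COL1A2 per length (range 1.65 to 2.95, SD 0.21 log2). It was not constant, and had an r of 0.608 with the mean log2 level of the other 3 genes over the 45 libraries. COL1A1 over COL3A1 had a median of 0.677 (0.483 to 1.83) and exceeded 1 in 9 of 45 libraries, COL1A1 over COL5A1 a median of 2.23 (1.19 to 5.31), and COL1A1 over COL6A3 a median of 5.50 (2.35 to 18.9).

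**Figure D4:**
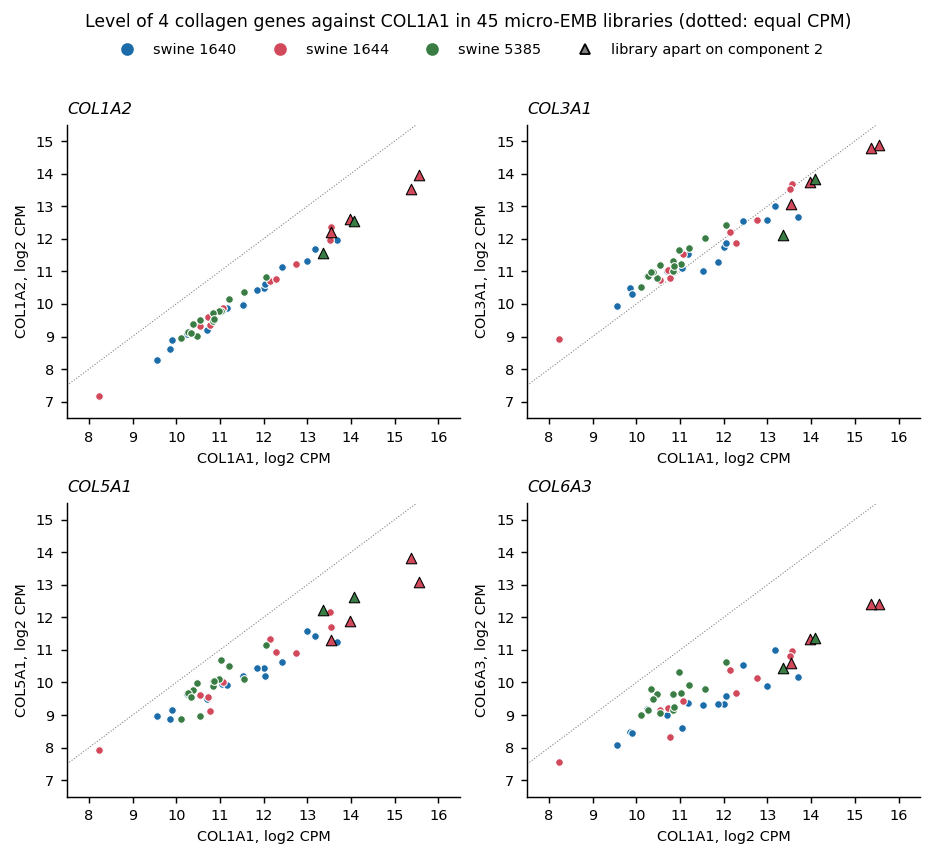
Log2 CPM of COL1A2, COL3A1, COL5A1 and COL6A3 against that of COL1A1 in 45 micro-EMB libraries, coloured by swine, with triangles for the 6 libraries apart and a dotted line at equal CPM. COL1A2 follows COL1A1 most closely (r = 0.995), and COL6A3 rises less steeply than COL1A1 (r = 0.905).

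Other genes were ranked by the correlation of their log2 CPM with the mean of the 5 over the same 45 libraries. The closest were COL6A1 (r = 0.980), COL5A2 (0.979), SPARC (0.972), COL6A2 (0.965) and LOX (0.944), and without the 6 libraries apart their r was 0.968, 0.964, 0.957, 0.956 and 0.906. COL6A1 and COL6A2 encode the partner chains of type VI collagen, COL5A2 a partner chain of type V, SPARC a collagen-binding matrix protein, and LOX the lysyl oxidase that starts collagen cross-links. Of 18092 genes, 1.02% reached an r of 0.7, and the median gene had -0.03.

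Matrix genes were then read as lists by function. Of the fibrillar collagens outside the 5, 2 of 4 reached 0.7, with COL5A3 at 0.800, COL11A1 at 0.309 and COL2A1, the main collagen of cartilage, at -0.12 (-0.38 without the 6 libraries). Of the other collagens 5 of 10 did, with COL14A1 at 0.902, COL16A1 at 0.858 and COL4A1, a basement membrane chain, at 0.148. All 5 small proteoglycans that could be tested, which bind and space collagen fibrils, did: LUM at 0.859, PRELP at 0.839, FMOD at 0.803, DCN at 0.802 and BGN at 0.782. Matricellular and adhesive proteins reached it in 4 of 9 genes, with THBS2 at 0.929 and FN1 at 0.877 but COMP at -0.06 (-0.34 without the 6 libraries). Elastic fibre genes reached it in 5 of 7, with FBN1 at 0.868 and ELN at 0.801. Of 13 genes that modify, fold or cross-link collagen, 5 reached it, with PCOLCE, an enhancer of procollagen cleavage, at 0.927 and PLOD2, a lysyl hydroxylase, at 0.802, while P4HA1, a prolyl hydroxylase subunit, was at 0.278. MMP2, a matrix-degrading protease and the only gene of its list tested, was at 0.919. Of the genes on all lists 12, among them POSTN, ASPN and OGN, were listed at 0 in every micro-EMB, and 8 carried no symbol in the table, so these are not in the counts. Without the 6 libraries apart the counts at 0.7 were 2 of 4 fibrillar collagens, 4 of 10 other collagens, 4 of 5 small proteoglycans, 4 of 9 matricellular genes, 5 of 7 elastic fibre genes and 4 of 13 collagen-processing genes. Median r of these lists was 0.349, 0.660, 0.797, 0.524, 0.788 and 0.610 in the same order.

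Of the cell type lists, fibroblast markers followed the collagens most closely. Their median r was 0.723 over 6 genes (0.755 without the 6 libraries apart), and 3 of 6 reached 0.7 (4 without the 6 libraries). PDGFRA was at 0.889, VIM at 0.810, DPT at 0.784, DDR2 at 0.662, PDGFRB at 0.368 and TCF21 at 0.245. Cardiomyocyte markers had a median of -0.646 over 7 genes, which was -0.04 without the 6 libraries. Endothelial markers had -0.415 and 0.05. Summed fibroblast markers had an r of 0.839 with the collagen mean and 0.725 without the 6 libraries. The inverse relation with heart muscle genes therefore rested on the 6 libraries, while that with fibroblast genes was also seen among the other 39. Leukocyte markers had a median of 0.334, adipocyte markers 0.221, smooth muscle markers -0.166 and cartilage markers -0.03. The mitochondrial share of counts had an r of -0.635 with the collagen mean (-0.287 without the 6 libraries), the log2 total count -0.255 and the share in the 10 most counted genes 0.149. Their part in the collagen levels was not tested.

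**Figure D5:**
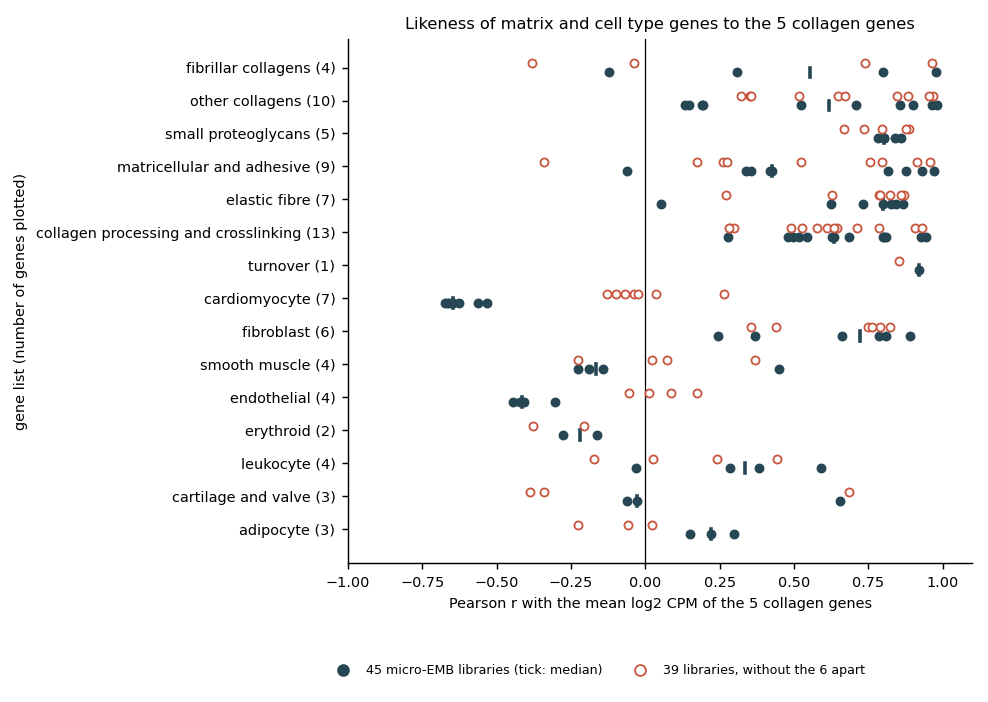
Pearson r of single genes with the mean log2 CPM of the 5 collagen genes, by gene list (number of genes in brackets), over 45 micro-EMB libraries (filled points, tick at the median) and over the 39 without the libraries apart (open points). Small proteoglycans have a median of 0.803, and cardiomyocyte markers move from a median of -0.646 to -0.04 without the 6 libraries.

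In the tests of time and region the matrix lists gave few calls. Over any timepoint of the infarcted region 0 of 8 fibrillar collagens passed, 0 of 11 other collagens, 0 of 5 small proteoglycans, 0 of 7 elastic fibre genes, 0 of 13 collagen-processing genes and 0 of 1 turnover genes, where 3.35% of all genes passed. Of 9 matricellular genes 3 passed, CILP (edgeR adjusted p = 0.00524), THBS1 (0.0238) and TNC (0.0301). THBS1, thrombospondin 1, an early injury-response protein, was higher than baseline at 1-3 h by a log2 fold change of 4.65 ± 1.20 (SE, edgeR adjusted p = 0.043), where 1.62% of all genes passed. This call was lost with swine as a block (adjusted p = 0.0639), with counts summed per swine (0.145) and without any 1 of the 4 baseline libraries (0.1 to 0.118). Over any timepoint, counts summed per swine gave adjusted p-values in edgeR of 0.299 for CILP, 0.386 for THBS1 and 0.294 for TNC, and limma-voom one of 0.138 for CILP. TNC was also lost without infarcted 2 days replicate 4 (0.0564), infarcted 2 days replicate 6 (0.0788), baseline replicate 2 (0.053) or baseline replicate 5 (0.0516). Between regions 0 genes of any list passed. With the 5 genes left out of their lists, the median log2 fold change of the infarcted over the non-infarcted region was 0.33 for 4 fibrillar collagens, 0.87 for 10 other collagens, 0.91 for elastic fibre genes, 0.87 for matricellular genes, 0.72 for small proteoglycans and 0.58 for collagen-processing genes, beside -0.05 over all genes. Without the 6 libraries apart these medians were 0.01, 0.68, 0.35, 0.57, 0.63 and 0.46, beside -0.06. Fibroblast markers had a median of 0.72 and 0.64, and cardiomyocyte markers of -0.03 and 0.12, with all libraries and without the 6. Against blood 7 of 8 fibrillar collagens and 11 of 11 other collagens were higher in micro-EMBs, 28.4% of all genes being so.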

How the data were processed

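Total RNA of micro-EMBs and blood was made into libraries with a stranded kit. Per the labels the authors aligned the reads with STAR to Sscrofa11.1 and tallied them per gene with featureCounts. The column names point to unstranded counting but do not state it. The deposited values are raw counts per gene. If counting was unstranded, reads of a gene and of an antisense partner cannot be told apart. A table of gene names gave 15029 of the 31907 gene IDs a symbol, and positions and exons came from the RefSeq annotation of the same build. Of 85 libraries, 28 were not kept: 25 in which the 10 most counted genes held under 7% of counts, 2 in which they held over 60%, and 1 with a total of 11505 counts.

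Counts were scaled by TMM in edgeR 4.0.16 (R 4.3.3), and genes were kept where 20% or more of a comparison's libraries reached 1 CPM. TMM-scaled log2 CPM values were used for levels and correlations of genes. Summed CPM of the marker lists were not scaled by TMM. Comparisons were fitted with edgeR's quasi-likelihood test on all genes and adjusted by Benjamini-Hochberg, with calls made up to an adjusted p of 0.05. The fits and the correlations were tested on simulated data. DESeq2 1.42.0, limma-voom 3.58.1, other scalings and filters, swine as a block, counts summed per swine and leaving out libraries were alternatives. Swine marks the same animal, so swine pairs the samples: deviations from the group means correlated with a mean r of 0.0948 for 316 pairs of libraries from the same swine and -0.0722 for 674 pairs from different swine. Replicates are biopsies, of which several can come from 1 animal.

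The 5 genes, the gene lists and the tests were chosen with earlier results of these data known. The genes named for likeness were the 5 with the highest r with the mean of the collagen genes, and genes of the lists were named as examples. With the totals of 3499443 to 16659110 counts the collagen genes were counted well in micro-EMBs, but 0.00174 to 0.0106% of blood counts fell on them.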

Additional observations from a re-analysis of the deposited data

Results flagged for a closer look

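In baseline micro-EMBs COL6A3 was at 11.32 log2 CPM in replicate 1, far above the nearest of the other 3 libraries at 9.65, a gap of 0.839 of the group's whole range. This is a library apart with low cardiomyocyte markers. In blood at 2 days COL5A1 was at 2.14 log2 CPM in replicate 6, far below the nearest library at 4.22, a gap of 0.848 of the range. A gap of this size is found by chance in about 1 of 20 groups, and 45 groups of genes and samples were looked at.

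Of the libraries not kept, 10 blood libraries with under 7% of their counts in the 10 most counted genes held a median of 0.0283% of counts on the 5 collagen genes, and all 10 lay above the highest kept blood library at 0.0106%. Their origin was not tested.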

How the results depend on the processing

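In every setting tried 0 of the 5 genes passed for time and region and 5 of 5 for blood. Of 1120 other values of the 5 genes 1087 kept their direction and their side of the threshold and 33 changed sign, all of them uncalled estimates. Of these, the region estimate of COL6A3 at 0-1 h alone became -0.111 without the 6 libraries apart, and the others were for 0-1 h or 1-3 h against baseline, with SEs of the main estimates from 0.69 to 1.20. The cause was not tested. For COL6A3 at 0-1 h (main -0.10) DESeq2 size factors gave 0.00597, DESeq2 0.00613, all libraries of at least 1000000 counts 0.20, swine as a replicate block 0.34, and leaving out a library -0.73 to 0.55. At 1-3 h limma-voom gave -0.0151 for COL1A1, -0.06 for COL1A2, -0.0506 for COL3A1 and -0.0329 for COL6A3. Counts summed per swine gave, at 0-1 h, -0.70 for COL1A1, -0.75 for COL1A2, -0.57 for COL3A1 and -0.16 for COL5A1 and, at 1-3 h, -0.0797, -0.23, -0.33, -0.17 and -0.18 for the 5 genes in order. Leaving out a library at 0-1 h gave -0.59 to 1.41 for COL1A1, -0.66 to 1.30 for COL1A2, -0.53 to 1.18 for COL3A1 and -0.13 to 1.16 for COL5A1, the lowest each without infarcted 0-1 h replicate 3, and at 1-3 h -0.0334 to 1.25 for COL3A1, the lowest without baseline replicate 2.

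The lowest r between the 5 genes moved from 0.905 to 0.821 without the 6 libraries apart. Counts of all genes called depended more on the settings. For any timepoint of the infarcted region they were 601 by edgeR, 1847 by DESeq2, 351 by limma-voom, 391 with all libraries of at least 1000000 counts, 0 with counts summed per swine and 587 to 1025 with a library left out (the highest without infarcted 0-1 h replicate 4). At 1-3 h they were 291 by edgeR, 1409 by DESeq2, 0 with counts summed per swine and 8 to 651 with a library left out (8 to 36 without any 1 of the 4 baseline libraries, 512 and 651 without infarcted 0-1 h replicates 3 and 4), while all libraries of at least 1000000 counts gave 0.471% of genes, against 1.62% in edgeR. DESeq2 called 2 at 0-1 h and 8 at 2 days where edgeR called 0, and all libraries of at least 1000000 counts gave 18 at 14 days. In the non-infarcted region edgeR called 0, DESeq2 248, the fit with no filter on low counts 29 and fits without 1 library up to 255 (without non-infarcted 1-3 h replicate 6). The swine block changed no call on the 5 genes. Values of the region by timepoint, and those of CILP, THBS1 and TNC under other settings, were chosen after seeing the data. The planned fit without genes of the mitochondrial chromosome had no chromosome column to use, and 13 mitochondrial genes matched by symbol were left out in its place, chosen after seeing the data. In blood the 5 genes were near the lowest countable levels.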
